A study of Mus musculus with 5 samples.

Results

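The mitochondrially encoded transcripts are the RNAs copied from mitochondrial DNA. They were taken as every row whose gene name begins with mt-, which gave 37 genes of the 53700 in the table of the T3 experiment and the same 37 of 55416 in the table of the high-fat diet (HFD) experiment. They comprise 13 mRNAs, 2 ribosomal RNAs and 22 transfer RNAs. RNA sequencing was done on inguinal white adipose tissue, a subcutaneous fat depot of the mouse, in 5 groups with 1 library each. The groups were floxed mice given PBS vehicle, Floxed (Veh), floxed mice injected with T3, the active form of thyroid hormone, Floxed (T3), ATRβKO mice injected with T3, ATRβKO (T3), and the 2 genotypes on HFD, Floxed (HFD) and ATRβKO (HFD). The injections ran daily for 7 days on normal food with tissue taken 24 hours after the last, the diet ran for 2 to 3 months, and each library of the T3 table pooled the depots of 3 mice. Whether the HFD libraries were pooled, the age of the mice and the line that drives the deletion are not given in the labels. The series title names the thyroid hormone receptor β of adipocytes, so a deletion would leave the receptor in the other cells of the depot.

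Mitochondrial DNA is a small circle that is read as long precursor RNAs from both strands. Transfer RNAs sit between most of the other genes, and cutting them out releases the mRNAs and rRNAs. The mRNAs encode core subunits of respiratory complexes I, III and IV and of ATP synthase (complex V), and the remaining subunits of these complexes, and all of complex II, come from the nucleus. Adipocytes that burn fuel for heat are rich in mitochondria, and thyroid hormone is a known stimulus of that state. In what follows, heavy-strand genes are the 12 mRNAs, 2 rRNAs and 14 transfer RNAs that share the orientation of most genes of the circle, and light-strand genes are mt-Nd6 and 8 transfer RNAs in the opposite orientation.

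Each group has a single library, so no difference could be tested against replicates, no p-value is given, and every difference below is one between libraries. Levels are in FPKM (a unit inferred from the values, since no header names it), which counts sequenced fragments per length of transcript and per depth of the library. A size rule stood in for a test: a gene counts as called when FPKM plus 1 differed at least 2-fold (a log2 ratio of 1) between libraries and the higher one reached 1 FPKM. Depth is not known, so no counting error is attached to a value. In bulk tissue, fewer cells of a type and less RNA per cell cannot be told apart. Thrb, which encodes the targeted receptor, was at 4.44 FPKM in Floxed (Veh), 4.43 in Floxed (T3), 4.26 in ATRβKO (T3), 4.38 in Floxed (HFD) and 170 in ATRβKO (HFD), so a gene-level value does not check the T3 label and goes against the HFD one. Values of the library labelled ATRβKO (HFD) are therefore kept out of every comparison.

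Some mitochondrial genes have copies on chromosome 1 that differ from them by at most 1 base where they align, so the rows of these copies are given beside the members. In GENCODE M21, whose build GRCm38 is older than the GRCm39 named in the submitters' processing notes, 7 neighbouring unprocessed pseudogenes match, in the order of the circle, the genes from the last part of mt-Co1 to the first part of mt-Nd4. For 5 of the mRNAs the copy covers 99.0% to 99.9% of the gene and is counted as a full copy: Gm28661 for mt-Co2, Gm10925 for mt-Atp6, Gm28437 for mt-Co3, Gm28438 for mt-Nd3 and Gm10222 for mt-Nd4l. Gm28437 matches mt-Co3 at all 783 aligned bases, so no read inside it can be told apart by its letters, and the first 150 bases of mt-Co3, the length of a read, stand for both.
mt-Co3: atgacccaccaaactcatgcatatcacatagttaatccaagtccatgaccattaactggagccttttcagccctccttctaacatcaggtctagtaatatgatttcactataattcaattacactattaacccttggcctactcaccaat
The 2 pairs that do differ are shown with the differing base in capitals, counted from 1 at the 5′ end of the mitochondrial gene. It is T3C for mt-Nd3 and Gm28438, and A1066T for mt-Co1 and Gm29216, which aligns to 483 of the 1545 bases of mt-Co1.
mt-Nd3: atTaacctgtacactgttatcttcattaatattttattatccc
Gm28438: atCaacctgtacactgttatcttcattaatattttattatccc
mt-Co1: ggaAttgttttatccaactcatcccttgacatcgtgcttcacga
Gm29216: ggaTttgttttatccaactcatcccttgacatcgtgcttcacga
mt-Atp8 lies between mt-Co2 and mt-Atp6 but has no such copy among the annotated transcripts. Its 204 bases overlap mt-Atp6 by the 43 bases in capitals, which Gm10925 shares.
mt-Atp8: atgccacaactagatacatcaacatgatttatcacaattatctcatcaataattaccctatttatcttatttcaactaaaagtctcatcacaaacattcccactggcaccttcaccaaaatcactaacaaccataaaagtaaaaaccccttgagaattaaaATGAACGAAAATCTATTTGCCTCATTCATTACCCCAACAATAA

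mt-Atp8, a small subunit of the membrane part of ATP synthase, had the highest value of any gene in each library of the T3 table and in Floxed (HFD). It was at 49766 FPKM in Floxed (Veh), 73315 in Floxed (T3), 44795 in ATRβKO (T3) and 29367 in Floxed (HFD). mt-Co1, the catalytic core of cytochrome c oxidase, came next among the mitochondrial genes, at 19327, 26982, 15706 and 12982 FPKM in the same order. mt-Cytb, the only mitochondrial subunit of complex III, was at 9234, 12298, 7539 and 6303 FPKM. All 3 genes had their highest value in Floxed (T3) and their lowest in Floxed (HFD), with ATRβKO (T3) below Floxed (Veh). The order by FPKM is per length, and mt-Atp8 is the shortest of the 13 mRNA genes. Multiplied by gene length, mt-Co1 accounts for an estimated 2.99% of mapped fragments in Floxed (Veh), against 1.02% for mt-Atp8. Gm29216, which matches part of mt-Co1, was at 2223 FPKM in Floxed (Veh), 2032 in Floxed (T3), 1847 in ATRβKO (T3) and 5104 in Floxed (HFD).

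The complex I subunits without a full copy followed the same order within the T3 table. mt-Nd1 was at 6272 FPKM in Floxed (Veh), 9479 in Floxed (T3) and 5598 in ATRβKO (T3), and mt-Nd2 at 4685, 7007 and 4553. mt-Nd4 was at 6341, 8296 and 5422 FPKM and mt-Nd5, at the far end of the heavy-strand precursor with mt-Cytb, at 2656, 3572 and 2069. For each of these 4 genes Floxed (T3) was highest and ATRβKO (T3) lowest of the 3 libraries. In Floxed (HFD) they stood at 6736, 5815, 4912 and 4035 FPKM in the order named. mt-Nd4 also has a partial copy, Gm28439, identical to it over 876 bases, which was listed at 0 in these 4 libraries.

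Each of the 5 mRNAs with a full copy was listed below its copy and, in these 4 libraries, below each of the 7 heavy-strand mRNAs without one. The gap was wide for mt-Co2, mt-Co3 and mt-Atp6, and for mt-Nd3 narrow, with 2166 FPKM against 2656 for mt-Nd5 in Floxed (Veh). mt-Co2, which takes electrons from cytochrome c, was at 264 FPKM in Floxed (Veh), 249 in Floxed (T3), 225 in ATRβKO (T3) and 961 in Floxed (HFD), and its copy Gm28661 at 18516, 27123, 16496 and 14896. mt-Co3, the third core subunit of cytochrome c oxidase, was at 128, 302, 420 and 248 FPKM, and its copy Gm28437 at 14052, 19485, 11968 and 11821. mt-Atp6, which forms the proton path of ATP synthase, was at 782, 958, 436 and 859 FPKM, and its copy Gm10925 at 13412, 18585, 11762 and 9762. In all 4 libraries the nuclear row was the higher member of each of these pairs, and the mitochondrial row of mt-Co3 held only 0.903%, 1.53%, 3.39% and 2.06% of the pair's sum. mt-Nd3, a short complex I subunit, kept the most on the mitochondrial row. It was at 2166, 2399, 1708 and 1002 FPKM against 6709, 10818, 6487 and 4878 for Gm28438, and held between 17.0% and 24.4% of the sum. mt-Nd4l, another short complex I subunit, was at 1794, 1792, 1340 and 734 FPKM against 11419, 17738, 10594 and 9491 for Gm10222. Between the highest and lowest of the 12 heavy-strand mRNAs there was a 389-fold range in Floxed (Veh) as deposited, and an 18.7-fold range with each copy added to its gene. How the authors' tools shared such reads is not given in the sources used here and was not tested, so the mitochondrial rows of these 5 genes are uncertain.

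**Figure D1:**
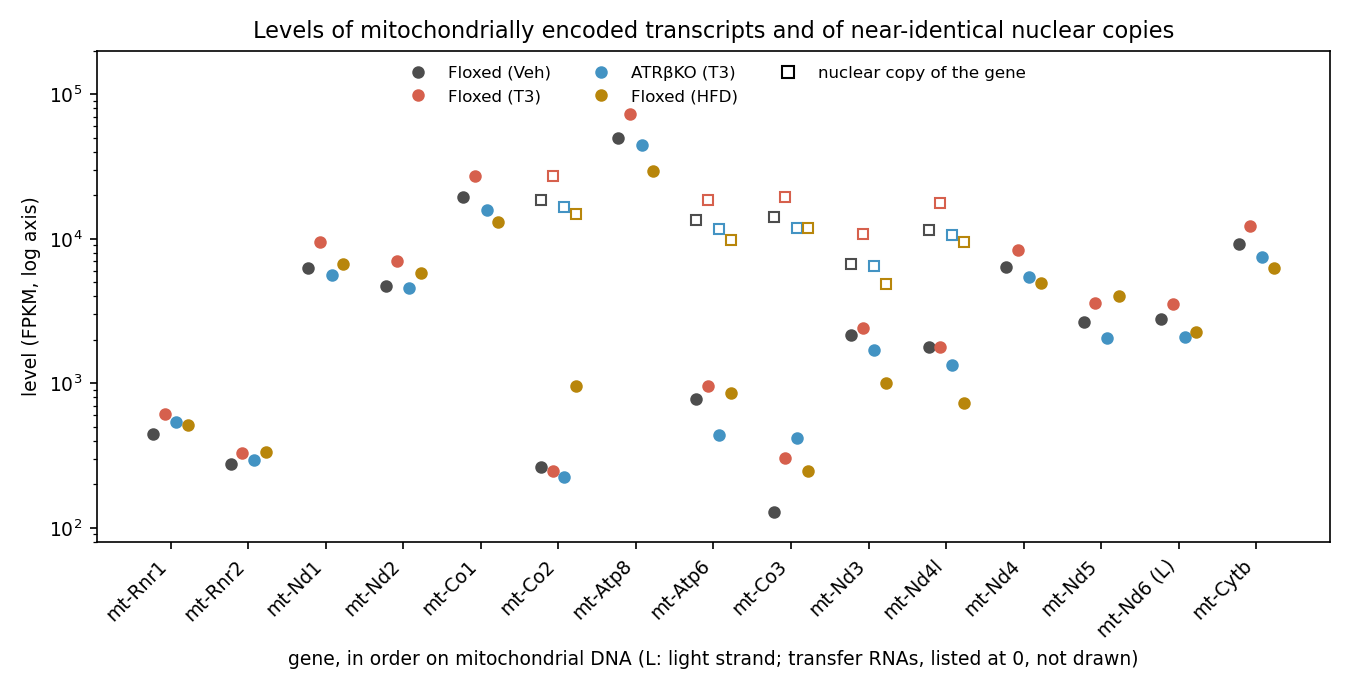
Levels in FPKM on a log axis for the 13 mRNAs and 2 rRNAs in their order on mitochondrial DNA, 1 point per library, with open squares for the full nuclear copies. The filled points of mt-Co2, mt-Atp6 and mt-Co3 lie at or below 961 FPKM in all 4 libraries, while the squares of their copies lie between 9762 and 27123 FPKM.

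mt-Nd6, a complex I subunit and the only light-strand mRNA, was at 2806 FPKM in Floxed (Veh), 3538 in Floxed (T3), 2082 in ATRβKO (T3) and 2277 in Floxed (HFD). It lies opposite the end of mt-Nd5, with 14 bases in common. Its ratio to mt-Nd5 was 1.06, 0.991 and 1.01 in the libraries of the T3 table and 0.564 in Floxed (HFD), and its ratio to mt-Cytb was 0.304, 0.288, 0.276 and 0.361. The 3 libraries of the T3 table lay close together in these ratios, and Floxed (HFD) stood lower against mt-Nd5 and higher against mt-Cytb. Whether reads were counted by strand is not given, so light-strand RNA cannot be told apart from heavy-strand RNA that covers the same bases.

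The rRNAs of the mitochondrial ribosome were listed far below the mRNAs without a full copy. mt-Rnr1, of the small subunit, was at 444 FPKM in Floxed (Veh), 616 in Floxed (T3), 541 in ATRβKO (T3) and 512 in Floxed (HFD). mt-Rnr2, of the large subunit, was at 275, 330, 295 and 333 FPKM. mt-Nd1, the gene next after them on the heavy-strand precursor, was 22.8, 28.7, 19.0 and 20.2 times mt-Rnr2. Whether the libraries were made from polyadenylated RNA or after removal of rRNA is not given in the sources used here, so these rows do not give the cell's rRNA level.

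All 22 transfer RNAs, 14 of the heavy and 8 of the light strand, were listed at 0 in every library. They adapt codons to amino acids in the mitochondrial ribosome and are 59 to 75 bases long, shorter than 1 read of 150 bases. Examples are mt-Tv, which sits between the rRNAs and carries valine, and mt-Te, which sits on the light strand beside mt-Nd6 and carries glutamate.
mt-Tv: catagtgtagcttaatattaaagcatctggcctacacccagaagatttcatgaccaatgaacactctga
mt-Te: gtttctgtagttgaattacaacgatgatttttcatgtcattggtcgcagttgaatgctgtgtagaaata
An exact 0 can be a failed estimate and is no measure of absence, so no transfer RNA enters a count or median below.

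Mitochondrial mRNAs took a larger part of the Floxed (T3) library than of the others. The members summed to 14.2% of all FPKM in Floxed (Veh), 19.2% in Floxed (T3), 12.4% in ATRβKO (T3) and 10.2% in Floxed (HFD). FPKM times gene length gives an estimated 7.94%, 11.0%, 6.72% and 6.41% of mapped fragments, and 11.9%, 16.7%, 10.2% and 9.71% with the 7 copies. Floxed (T3) was highest by each measure, and the libraries of the T3 table kept their order with and without the copies. Because FPKM is relative to the library total, a larger mitochondrial part by itself lowers the values of all other genes. Setting the summed FPKM of all genes but the members equal moved log2 ratios by 0.02 for Floxed (T3) against Floxed (Veh). For ATRβKO (T3) against Floxed (T3) the move was -0.04. The 7 copies stayed in those sums, with 8.81% of all FPKM in Floxed (Veh), 12.2% in Floxed (T3) and 7.90% in ATRβKO (T3). These 2 moves therefore do not give the full effect. Setting sums equal without the 50 most abundant genes moved log2 ratios by 0.12 and -0.13.

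**Figure D2:**
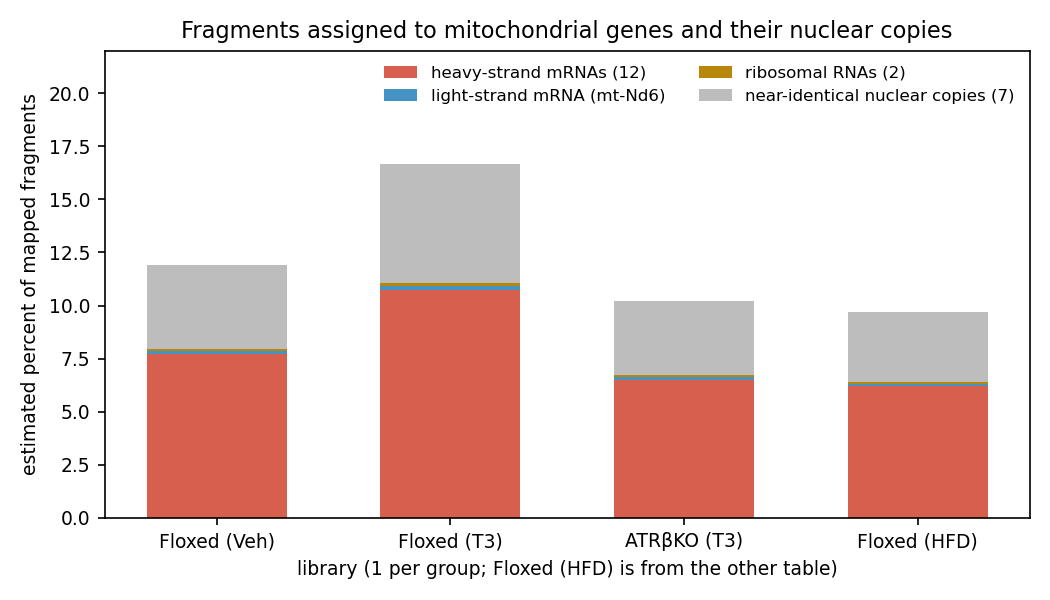
Estimated percent of mapped fragments (FPKM times gene length) in 1 library per group, stacked by class: heavy-strand mRNAs, mt-Nd6, rRNAs and the 7 near-identical nuclear copies. The full height is 11.9% in Floxed (Veh), 16.7% in Floxed (T3), 10.2% in ATRβKO (T3) and 9.71% in Floxed (HFD), and heavy-strand mRNAs make up most of each bar.

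The first comparison sets T3 against vehicle in floxed mice. The 7 heavy-strand mRNAs without a full copy were all higher in Floxed (T3), by log2 ratios of 0.39 (mt-Nd4) to 0.60 (mt-Nd1) with a median of 0.48, and none reached the size rule. In plain ratios of FPKM, mt-Nd1 was 1.51-fold, mt-Atp8 1.47-fold, mt-Co1 1.40-fold and mt-Cytb 1.33-fold higher, and mt-Nd6 on the light strand 1.26-fold. mt-Rnr1 had a log2 ratio of 0.47 and mt-Rnr2 of 0.26. Over the 12 heavy-strand mRNAs as deposited the median was 0.42, against -0.21 over all 15031 genes compared. Of the 15 members above 0, mt-Co3 alone was called, 2.36-fold higher, where 2.30% of all genes were called higher and 3.98% lower, 6.28% in either direction. Among genes that reach 100 FPKM, 9.07% were called. The split over all genes was 346 higher and 598 lower as deposited, and 476 higher and 440 lower after rescaling to a median log2 ratio of 0.

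The call of mt-Co3 rests on a row that holds a small part of its pair. Its copy Gm28437 had a log2 ratio of 0.47 and the sum of both rows 0.48. The mitochondrial rows of the 5 genes with a full copy ran from -0.08 (mt-Co2) to 1.23 (mt-Co3), their copies from 0.47 to 0.69 and the sums from 0.46 to 0.57. The sums lay within the range of the 7 genes without a full copy, 0.39 to 0.60. Gm29216, the partial copy of mt-Co1, had a log2 ratio of -0.13. mt-Co2 and mt-Nd4l, at -0.08 and -0.00 as deposited, were above 0 after rescaling to a median log2 ratio of 0, at 0.12 and 0.20. With each copy added, the median of the 12 heavy-strand mRNAs was 0.51 and no member was called. The step of adding copies was chosen once the data had been seen.

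The second comparison sets ATRβKO (T3) against Floxed (T3). The 7 heavy-strand mRNAs without a full copy were all lower in ATRβKO (T3), by log2 ratios of -0.79 (mt-Nd5) to -0.61 (mt-Nd4) with a median of -0.71, and again none reached the size rule. mt-Nd1 was at 0.591, mt-Co1 at 0.582 and mt-Cytb at 0.613 of the Floxed (T3) value, and mt-Nd6 had a log2 ratio of -0.77. The rRNAs stood closer to 0, mt-Rnr1 at -0.19 and mt-Rnr2 at -0.16. The median over all 14988 genes compared was 0.18, on the other side of 0. Of the 15 members above 0, mt-Atp6 alone was called, at 0.455 of the Floxed (T3) value, where 4.04% of all genes were called higher and 2.01% lower, 6.06% in either direction and 9.32% among genes that reach 100 FPKM. The split over all genes was 606 higher and 302 lower as deposited, and 427 and 404 after rescaling to a median of 0. mt-Co3 was the only mRNA above 0, at 0.47. Added to their copies, mt-Atp6 stood at -0.68 and mt-Co3 also at -0.68, inside the range of -0.71 to -0.68 for all 5 sums, and no member was called.

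The third comparison sets ATRβKO (T3) against Floxed (Veh), and for the 7 heavy-strand mRNAs without a full copy each difference was smaller in size than in the first 2 comparisons. They were below 0 by log2 ratios of -0.36 (mt-Nd5) to -0.04 (mt-Nd2), with a median of -0.23 against -0.03 over 15175 genes, and mt-Nd6 stood at -0.43. The rRNAs were on the other side, mt-Rnr1 at 0.29 and mt-Rnr2 at 0.10. mt-Co3 alone was called, at 3.28 times the vehicle value, where 1.83% of all genes were called higher and 1.79% lower, 3.62% in either direction and 2.34% among genes that reach 100 FPKM. Its pair's sum stood at -0.19, in the opposite direction. mt-Atp6 had a log2 ratio of -0.84 as deposited and -0.22 as a sum. The 3 comparisons share their libraries in pairs, so their values are set side by side and not taken as independent of each other.

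**Figure D3:**
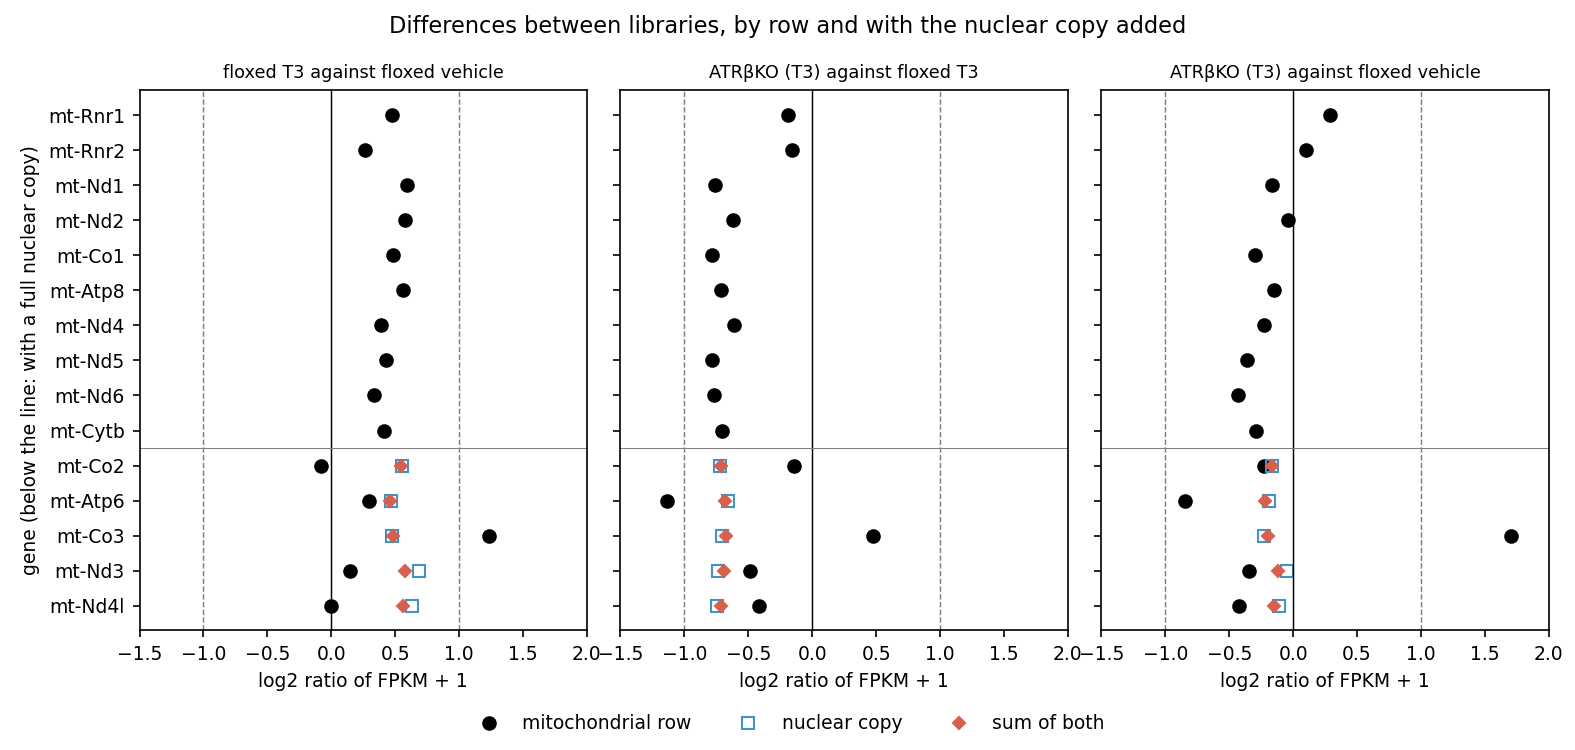
Log2 ratios of FPKM plus 1 for the mRNAs and rRNAs in the 3 comparisons, with filled circles for the mitochondrial row and, for the 5 genes with a full copy, open squares for the nuclear copy and diamonds for the sum. Dashed lines mark the size rule at -1 and 1, and no diamond reaches it, whereas the circles of mt-Co3 in the outer panels (1.23 and 1.71) and mt-Atp6 in the middle panel (-1.13) do.

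Nuclear genes for the same complexes lay on the same side in the first 2 comparisons. Of 82 nuclear respiratory chain and ATP synthase genes compared, 74 were above 0 in Floxed (T3) against Floxed (Veh), with a median log2 ratio of 0.51, and 2 were called higher. In ATRβKO (T3) against Floxed (T3), 76 of the 82 were below 0, with a median of -0.51, 2 called lower and 1 called higher. Against Floxed (Veh), the median in ATRβKO (T3) was -0.03 and none was called. Of all genes, 2.30% were called higher in the first comparison, and 4.04% higher and 2.01% lower in the second. In the third, 3.62% were called in either direction. The few calls among the 82 are near or below these shares, so they are not particular to these genes. The genes called in complex IV were Cox7a1 and Cox8b, subunit forms of heart, muscle and brown fat, with Floxed (Veh), Floxed (T3) and ATRβKO (T3) values of 55.2, 259 and 53.6 FPKM and of 254, 677 and 169 FPKM, and Cox6a2, the striated muscle form of another subunit, at 9.18, 4.97 and 16.5. Cox7a1 and Cox8b were the high ones in Floxed (T3), and Cox6a2 the low one.

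By complex, the medians of the mitochondrial subunits with copies added and of the nuclear ones lay on the same side of 0 in the first 2 comparisons. They differed most for ATP synthase in ATRβKO (T3) against Floxed (T3), and no difference between them was tested. For complex I the medians in Floxed (T3) against Floxed (Veh) were 0.56 for the 7 mitochondrial and 0.45 for the 36 nuclear subunits, and in ATRβKO (T3) against Floxed (T3) they were -0.71 and -0.45. Nuclear examples are Ndufb6 at 79.7, 142 and 85.5 FPKM and Ndufs1, of the electron-entry part, at 76.2, 122 and 68.1. For complex III, mt-Cytb stood at 0.41 and -0.71 beside nuclear medians of 0.71 and -0.78, with Uqcrc2, a core protein, at 140, 250 and 137 FPKM. For complex IV the 3 mitochondrial subunits had medians of 0.48 and -0.71, and the 15 nuclear ones 0.63 and -0.55. For ATP synthase the 2 mitochondrial subunits had medians of 0.51 and -0.70, and the 18 nuclear ones 0.42 and -0.35, led by the catalytic Atp5b at 1712, 2602 and 1509 FPKM. Complex II, which has no mitochondrial gene, stood at 0.52 and -0.72 over 4 genes, among them Sdha, the flavoprotein, at 236, 345 and 213 FPKM.

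**Figure D4:**
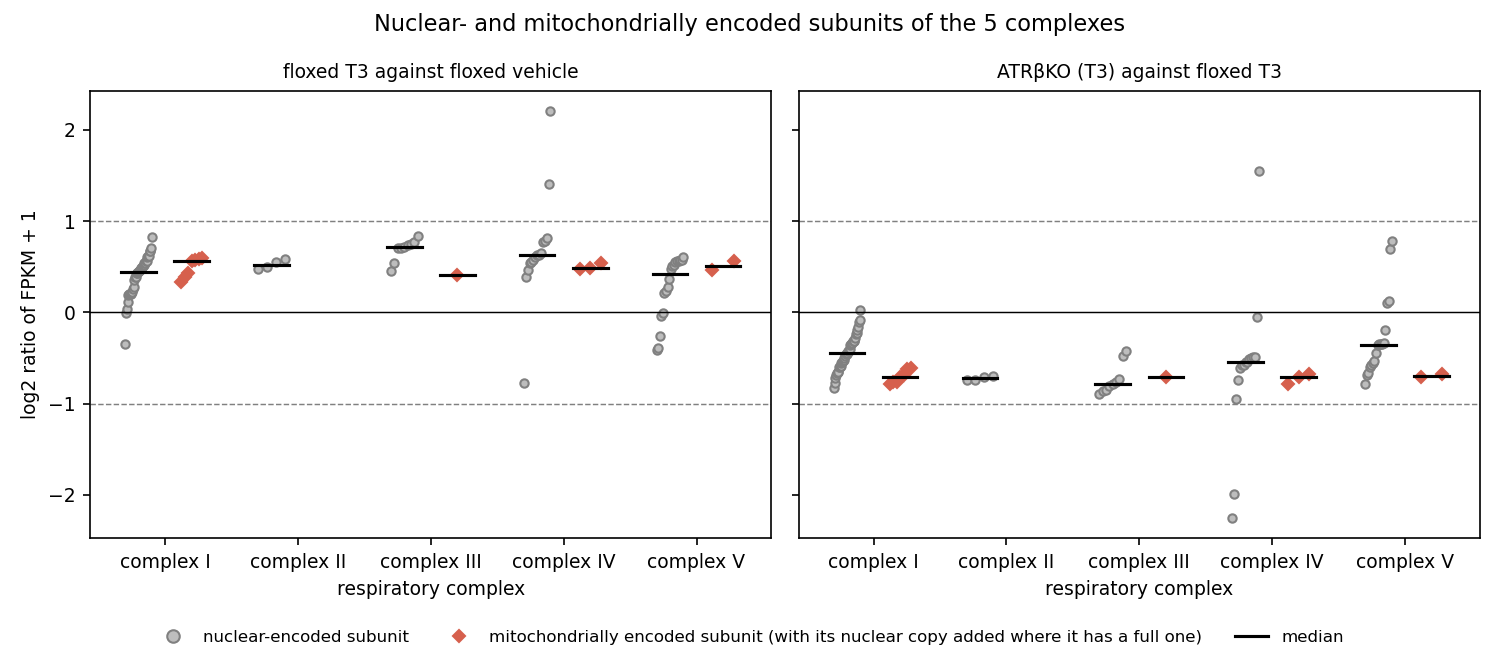
Log2 ratios of FPKM plus 1 for nuclear subunits (grey circles) and mitochondrially encoded subunits (diamonds, with the full nuclear copy added where there is one) of the 5 respiratory complexes, in 2 comparisons. Bars are medians and dashed lines the size rule. Every diamond lies above 0 in the left panel and below 0 in the right one, within -1 to 1.

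The genes that copy, process and maintain mitochondrial RNA and DNA had medians closer to 0 than the respiratory genes in the first 2 comparisons, beside -0.21 and 0.18 over all genes. The 10 genes of mitochondrial transcription had a median log2 ratio of -0.07 with T3 and 0.02 in ATRβKO (T3) against Floxed (T3), with none called, and Mterf3, a factor that binds mitochondrial DNA and lowers its transcription, was at 31.7, 20.9 and 23.7 FPKM in the same 3 libraries. The 22 genes of RNA processing and stability stood at 0.12 and -0.23, with 15 above 0 in the first comparison and 17 below 0 in the second, on the same sides as the mitochondrial mRNAs. Fastkd5, needed in human cells to mature mRNAs that no transfer RNA flanks, was called lower and then higher, from low values of 1.63, 0.18 and 2.25 FPKM. The 16 genes of DNA replication and nucleotide supply stood at -0.26 and 0.14 with none called, among them the mitochondrial deoxynucleoside kinases Tk2 (25.0, 15.7 and 20.4 FPKM) and Dguok (39.6, 25.5 and 31.6 FPKM). The 22 mitochondrial aminoacyl-tRNA synthetases, which charge the transfer RNAs listed at 0, stood at 0.06 and -0.16 with none called, 13 above 0 in the first comparison and 17 below 0 in the second, with Yars2 (tyrosine) at 7.63, 13.3 and 11.1 FPKM and Lars2 (leucine) at 41.8, 44.8 and 64.0. The 13 regulators of mitochondrial biogenesis stood at -0.16 and 0.03 with none called, and Pprc1, a coactivator related to PGC-1α, was at 9.01, 5.81 and 8.59 FPKM. Sirt3, a mitochondrial deacetylase, was at 16.7, 23.5 and 13.6 FPKM, on the side of the mitochondrial mRNAs in both comparisons, and the nuclear receptor Ppara at 5.15, 5.37 and 2.79.

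Markers of several cell types also differed between these libraries. Brown and beige adipocyte markers had 4 of 8 compared called higher with T3 and 5 of 8 called lower in ATRβKO (T3) against Floxed (T3). With T3, 5 of the 8 were above 0 and 3 below. In ATRβKO (T3) against Floxed (T3), 1 was above 0 and 7 below. Over all genes, 2.30% were called higher and 3.98% lower in the first comparison, and 4.04% and 2.01% in the second. The markers summed to 462, 1412 and 281 FPKM in vehicle, T3 and ATRβKO (T3). Most of each sum came from Cox7a1 and Cox8b, the complex IV genes named above, so the sums are not separate from those genes. Ucp1, the uncoupling protein of brown fat, was at 24.3, 278 and 7.13 FPKM. Skeletal muscle markers, of another mitochondria-rich tissue, lay the other way, with 12 of 14 called lower with T3 and 12 of 12 called higher in ATRβKO (T3) against Floxed (T3), and summed to 2673, 576 and 2666 FPKM. Macrophage markers summed to 2039, 1481 and 2571 FPKM, fibroblast and progenitor markers to 1939, 1215 and 2514, T and NK cell markers to 290, 136 and 228, B cell markers to 344, 205 and 300 and endothelial markers to 284, 382 and 284. The 10 adipocyte markers were present in all 4 libraries, with sums of 15235, 15275 and 15722 FPKM in the T3 table and none called. Single adipocyte markers differed more than these sums. With T3, 2 were above 0 and 8 below, by log2 ratios of -0.94 to 0.76. In ATRβKO (T3) against Floxed (T3), 5 were above and 5 below, by -0.96 to 0.92. No marker on these lists was at 0 in these libraries, and the part of these cell types in the mitochondrial values was not tested.

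Floxed (HFD) is from the other table, so its levels are set beside those of Floxed (Veh) without a ratio. It also stood apart in marker sums. Floxed (HFD) and Floxed (Veh) had 12294 and 2673 FPKM of skeletal muscle markers, 30471 and 15235 of adipocyte markers, 18.6 and 290 of T and NK cell markers and 2.51 and 344 of B cell markers. Brown and beige markers summed to 323 and 462 FPKM, macrophage markers to 1313 and 2039, fibroblast and progenitor markers to 1663 and 1939 and endothelial markers to 296 and 284. Their part in the mitochondrial levels was not tested. Of the 15 mRNAs and rRNAs, 8 had a higher value in Floxed (HFD) than in Floxed (Veh). Relative to the median heavy-strand mRNA of its own library, 4 did. That median, over rows as deposited, was 3671 FPKM in Floxed (Veh) and 4474 in Floxed (HFD). The uncertain mitochondrial rows of genes with a full copy all lay below it in both libraries. The drop from 8 to 4 therefore depends on these rows, and a median with copies added was not tried. The 8 include mt-Co2, mt-Atp6 and mt-Co3, which were lower in Floxed (HFD) once their copies were added. Their sums in Floxed (HFD) and Floxed (Veh) were 15857.1 and 18780.2, 10620.4 and 14194.3, and 12069.5 and 14179.9 FPKM. The order of the 15 genes was much the same. Over them, the Spearman correlation of levels across genes was 0.939 between Floxed (Veh) and Floxed (HFD), and 0.989 between Floxed (Veh) and Floxed (T3). Over the 7 heavy-strand mRNAs without a full copy, it was lower, at 0.821 and 0.964. Genes are not independent replicates, and every library shares gene lengths and copies, so these values describe likeness only. mt-Co1 was 1.93 times mt-Nd1 in Floxed (HFD), against 2.81 to 3.08 times in the T3 table. Gm29216, the partial copy of mt-Co1, was at 5104 FPKM in Floxed (HFD) and at 1847 to 2223 in the T3 table. Its part in this ratio was not tested. mt-Atp8 was 2.77 times the sum of mt-Atp6 and Gm10925 in Floxed (HFD), against 3.51 to 3.75 times.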

How the data were processed

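RNA was sequenced with 2 x 150 base reads from TruSeq libraries, per the labels' protocols. HISAT2, StringTie and GRCm39 come from the submitters' processing notes, without versions. The deposited values were taken as FPKM made by the authors. No header names the unit, and it was inferred from non-integer values with unequal sums. Low values of single-exon genes fell on no whole-fragment steps, so depth stayed unknown and FPKM was compared as deposited. Members and gene lists were chosen with earlier results of these data known. Log2 ratios used a pseudocount of 1 FPKM, only within the T3 table, and were computed with Python 3.11.15 and pandas 2.3.3, after a check on simulated data. The text names all mRNAs and rRNAs, near-identical nuclear copies at 5 FPKM or more, and examples from list members called by size or, in lists with none called, of the largest log2 ratio at 5 FPKM or more. Gene lengths, neighbours and sequences came from GENCODE M21 (GRCm38). Its coordinates gave the lengths and the order of the genes and are not printed. Copies were found with BLAST+ 2.17.0 at 99.5% identity or more. Copies of lower identity on other chromosomes were left out. Among these, Gm13340 on chromosome 2, 97.6% identical to mt-Co1, was at 59.8 FPKM in Floxed (HFD). A full copy covered at least 95% of the gene, and a partial one at least 150 bases, limits set after the levels were seen. Alternatives were other pseudocounts, floors, size rules and scalings.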

Additional observations from a re-analysis of the deposited data

Results flagged for a closer look

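The library labelled ATRβKO (HFD), outside every comparison, listed 25 of the 37 members at 0, among them the mRNAs mt-Co1, mt-Nd4l and mt-Cytb, and 6 members at more than 2 times the value of Floxed (HFD). These were mt-Nd6 at 145282 against 2277 FPKM, mt-Nd5 at 58590 against 4035, mt-Nd3 at 37425 against 1002, mt-Atp6 at 9234 against 859, mt-Co3 at 4470 against 248 and mt-Rnr2 at 857.5 against 333. The same library's values summed to 1891070 FPKM, against 757606 in Floxed (HFD). No cause was tested, and no conclusion is drawn from these values.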

How the results depend on the processing

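The median log2 ratio of the 12 heavy-strand mRNAs kept its direction under every alternative run, at 0.35 to 0.64 for Floxed (T3) against Floxed (Veh), -0.85 to -0.59 for ATRβKO (T3) against Floxed (T3) and -0.28 to -0.18 for ATRβKO (T3) against Floxed (Veh). Rescaling to a median of 0 moved all log2 ratios by 0.21, -0.18 and 0.03 in these comparisons. The number of members called, 1 in each comparison, was 2, 9 and 2 with a size rule of 1.5-fold, 0 in each with 4-fold, and 0 in each with the copies summed. No share of all genes is given for the 1.5-fold and 4-fold rules, so these counts cannot be read as particular to the members. With copies summed, mt-Co3 was at 0.48 for T3 against vehicle and reversed to -0.19 for ATRβKO (T3) against vehicle, and mt-Atp6 was at -0.68 for ATRβKO (T3) against Floxed (T3). The 8 of 15 genes higher in Floxed (HFD) than in Floxed (Veh) became 4 relative to the median heavy-strand mRNA. That median includes the uncertain rows of genes with a full copy, and this count was not rerun with copies summed. Among the 8, mt-Co2, mt-Atp6 and mt-Co3 were lower in Floxed (HFD) with copies summed. No paired analysis was possible because each group has 1 library. Depth is unknown, so no counting limits are given.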
